A study of Mus musculus with 23 samples.

Results

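The 9 genes described here encode proteins that act in or on blood vessels, and their RNA was measured in whole brown adipose tissue (BAT). Vegfa and Vegfb encode ligands of the VEGF family, Kdr, Flt1, Nrp1, Tek and Aplnr encode receptors, and Pecam1 and Cdh5 encode proteins of the contacts between endothelial cells. The genes were chosen by symbol, and all 9 were found among the 14651 genes of the table. The choice was made with their response to cold in these mice known, so their normalized counts at RT and 4°C and the differences between them are given as a description, with no test. Differences between the genotypes, and the difference between the genotypes in the cold response, were not used in the choice and were tested.

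The tissue came from 23 mice, and all were C57BL/6 males aged 8 to 12 weeks with both Mcu alleles flanked by loxP sites (Mcu fl/fl). Control mice (Ctrl) carried these alleles alone, and BAT-Mcu-KO mice, called knockout mice here, also carried UCP1-Cre, in which the Ucp1 promoter drives Cre in brown adipocytes. Mcu encodes the pore of the mitochondrial calcium uniporter, and other cells of BAT, endothelial cells included, are not targeted by this Cre. At RT there were 6 mice of each genotype, and at 4°C there were 5 Ctrl mice and 6 knockout mice, which makes 4 groups. Cold exposure lasted 6 h, with each mouse alone in a cage with no bedding and, by the general protocol, with no food. By the general housing conditions, mice at RT lived in groups with chow, and no exception for these mice is given in the sources used here. Food, housing and temperature therefore cannot be told apart. In addition, fewer cells of a type and less RNA per cell cannot be told apart in whole tissue.

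The values are normalized counts, the reads of a gene divided by the size factor of its sample. Depth was 7129271 to 21006347 reads per sample, and 3 reads, taken as the floor, came to between 1.97 and 6.07 normalized counts. Mcu was 81.4 to 136 and 70.8 to 132 normalized counts in Ctrl mice at RT and 4°C, against 15.2 to 42.4 and 24.0 to 39.9 in knockout mice, so every BAT-Mcu-KO mouse lay below every Ctrl mouse. Ucp1, the uncoupling protein of brown adipocytes, was 50590.2 to 70028.0 at RT and 140888 to 198043 at 4°C. The 30 endothelial markers listed beside the 9 genes were all in the table, with a summed level of 14139 to 20452 at RT and 20478 to 30288 at 4°C. The summed level of 8 skeletal muscle genes ran from 17.4 to 46400.3 with overlap among all 4 groups. Its median was 1733 at RT and 11045.5 at 4°C in Ctrl mice, and 18742 and 3400 in knockout mice. The part of muscle in the values below was not tested.

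VEGF-A is secreted by brown adipocytes, among other cells, and acts on endothelial cells chiefly through KDR, the receptor that carries most of its signal. FLT1 binds the same ligand more tightly and signals less, which lets it act as a decoy, and it is also the receptor of VEGF-B. NRP1 is a co-receptor shared by VEGF-A and the class 3 semaphorins, TEK (TIE2) binds the angiopoietins, and APLNR is the G protein-coupled receptor of apelin. BAT is among the most densely vascularised tissues, and its blood flow rises when sympathetic nerves release noradrenaline in the cold.

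The sequence before the transcription start was read for the ligand Vegfa and the receptors Kdr and Flt1, whose mean levels were all higher at 4°C. The windows are the 250 bases upstream of the start in RefSeq (GRCm38.p6), each on the minus strand and printed 5′ to 3′. They lie at chr17:46032378-46032627 for Vegfa, at chr5:75978456-75978705 for Kdr and at chr5:147726012-147726261 for Flt1. Capitals mark the cyclic AMP response element (CRE) TGACGTCA, the site bound by CREB, a factor activated by noradrenaline through cyclic AMP.
Vegfa: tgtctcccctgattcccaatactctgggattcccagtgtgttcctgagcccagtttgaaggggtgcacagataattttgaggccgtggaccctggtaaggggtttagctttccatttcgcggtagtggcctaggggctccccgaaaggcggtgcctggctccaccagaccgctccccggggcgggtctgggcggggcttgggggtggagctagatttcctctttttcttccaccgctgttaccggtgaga
Kdr: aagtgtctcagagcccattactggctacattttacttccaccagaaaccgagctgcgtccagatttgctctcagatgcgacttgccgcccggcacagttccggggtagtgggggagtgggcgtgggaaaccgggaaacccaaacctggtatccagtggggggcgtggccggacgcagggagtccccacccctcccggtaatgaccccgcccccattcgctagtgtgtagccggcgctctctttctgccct
Flt1: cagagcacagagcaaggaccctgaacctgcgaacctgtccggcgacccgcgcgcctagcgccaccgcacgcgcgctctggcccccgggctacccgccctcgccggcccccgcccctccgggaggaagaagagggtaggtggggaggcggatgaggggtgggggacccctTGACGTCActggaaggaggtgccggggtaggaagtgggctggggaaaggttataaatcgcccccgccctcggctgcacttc
The Flt1 window held 1 CRE, starting 81 bases before the transcription start, and the windows of Vegfa and Kdr held none. Of 32851 upstream windows of this length in the genome, 1.55% held this motif. The shorter motif TGACG, which lies within the CRE and was counted on both strands, occurred in 17.8% of windows, and of the 3 genes it was found in Flt1 only. ACGTG, the core of the site bound by hypoxia-inducible factors, occurred in 16.6% of windows and was absent from all 3. A window was at hand for 6 of the 9 genes, and those of Vegfb and Tek held none of the 3 motifs. The Nrp1 window lies inside the gene as annotated by GENCODE M21 and was not read as upstream sequence. A start within the Vegfa gene has a window of its own, with 1 TGACG and 1 ACGTG that share bases. The motifs were chosen after these sequences had been read, and a match is only a description of the letters.

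Vegfa, the ligand of KDR, FLT1 and NRP1, was higher at 4°C in both genotypes. In Ctrl mice its normalized count at RT was 371 at the lowest, 460.5 at the median and 539 at the highest, and it was 763, 828.6, 662, 1046 and 714 in the 5 mice at 4°C. Each Ctrl mouse at 4°C thus lay above each at RT. In knockout mice it lay between 358 and 567.8 at RT (median 445) and between 515 and 989.7 at 4°C (median 817). Here the groups overlapped through 1 mouse at 4°C, replicate 1 with 515, and the other 5 were at 739 or more. The means of 453 ± 64.1 (SD, n = 6) and 803 ± 149 (SD, n = 5) in Ctrl mice give a ratio of 1.77, and those of 461 ± 89.4 and 785 ± 156 (SD, n = 6 each) in knockout mice a ratio of 1.70. On the log2(normalized count + 1) scale used for all fits the difference was 0.82 (SE 0.15) and 0.76 (SE 0.14).

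Vegfb, which binds FLT1 but not KDR, was not higher at 4°C. Ctrl mice had 221 to 366 normalized counts (median 305) at RT and 176, 276, 356, 298 and 281 at 4°C, with full overlap. Knockout mice had 268 to 349 (median 304) at RT and 184 to 298 (median 206) at 4°C. The overlap in knockout mice came from replicate 1 at 4°C, at 298, since the other 5 lay between 184 and 219, below every BAT-Mcu-KO mouse at RT. This is the same mouse that had the least Vegfa at 4°C. The log2 difference with cold was -0.14 (SE 0.16) in Ctrl and -0.50 (SE 0.15) in knockout mice. Per kb of exon, the mean log2 ratio of Vegfa to Vegfb went from -0.82 ± 0.41 (SD over mice, n = 6) to 0.13 ± 0.46 (n = 5) in Ctrl mice. In knockout mice this ratio went from -0.82 ± 0.26 to 0.44 ± 0.53 (SD, n = 6 each). Ratios between genes, here and below, are of normalized counts per kb of exon, with exon lengths from GENCODE M21.

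**Figure D1:**
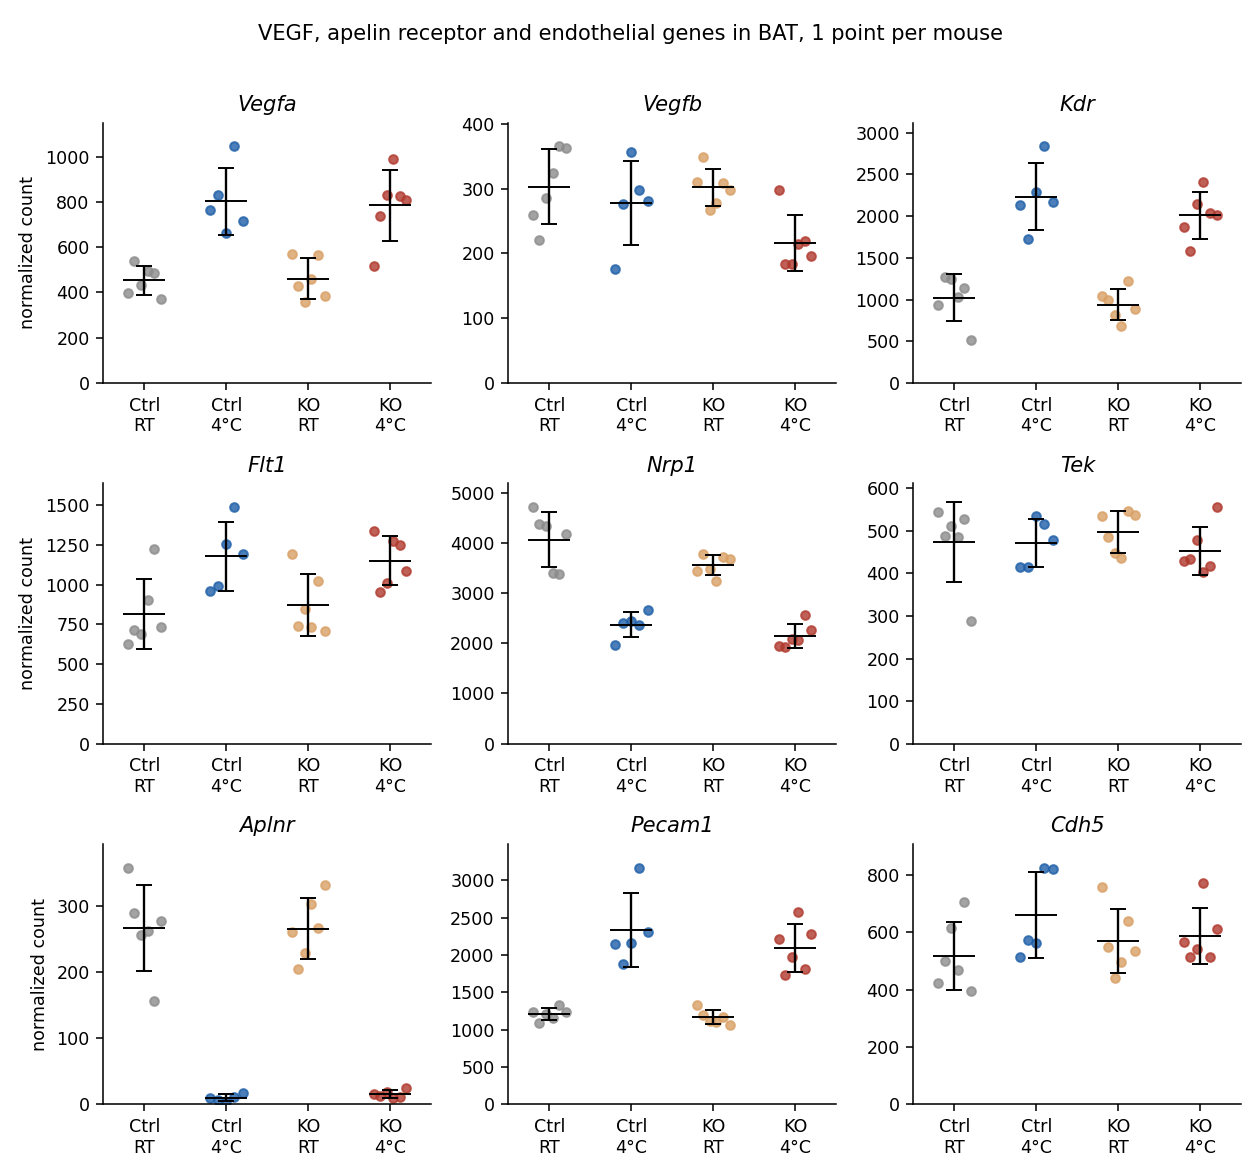
Normalized counts (vertical axes, from 0) of the 9 genes in each mouse, by group on the horizontal axis (KO is BAT-Mcu-KO), with 1 point per mouse and the group mean ± SD in black. Kdr and Pecam1 stand above their RT values in every mouse at 4°C, Nrp1 and Aplnr below, and Tek and Cdh5 overlap.

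Kdr, the main signalling receptor of VEGF-A, had the highest ratio of 4°C to RT among the 5 receptors of the 9 genes. In Ctrl mice it ran from 517 (median 1085) to 1273 normalized counts at RT and was 2136, 1729, 2286, 2838 and 2175 at 4°C. Knockout mice had 679 to 1218 (median 938) at RT and 1576 to 2410.2 (median 2025) at 4°C. No mouse at 4°C overlapped with a mouse at RT in either genotype. The ratio of means was 2.18 in Ctrl and 2.14 in knockout mice, and the log2 difference was 1.16 (SE 0.18) and 1.11 (SE 0.17). Replicate 6 of Ctrl at RT was the lowest of the 23 mice for Kdr, and the Ctrl difference was 0.98 without it.

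Flt1, the decoy-like receptor, was higher at 4°C as well but with overlap. It ran from 625.3 (median 721) to 1224 normalized counts in Ctrl mice at RT and was 963, 989, 1258, 1489 and 1190.0 at 4°C. In the knockout it went from 707 to 1193 (median 791) at RT to 957 to 1334 (median 1166) at 4°C. The log2 difference of 0.55 (SE 0.16) in Ctrl and 0.42 (SE 0.15) in knockout mice was smaller than that of Kdr. Per kb of exon, the mean log2 ratio of Kdr to Flt1 therefore moved from 0.89 ± 0.55 to 1.504 ± 0.13 in Ctrl mice. In knockout mice this ratio moved from 0.69 ± 0.26 to 1.38 ± 0.21 (both SD over mice).

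Nrp1, the co-receptor, was lower at 4°C. It was 3377 to 4718 normalized counts (median 4249) in Ctrl mice at RT and 1974, 2405, 2434, 2374 and 2657 at 4°C. In the knockout it was 3250.3 to 3782 (median 3579.7) at RT and 1931 to 2559.7 (median 2080.2) at 4°C. Every mouse at 4°C was below every mouse at RT. The ratio of means was 0.583 in Ctrl and 0.601 in knockout mice, a log2 difference of -0.77 (SE 0.09) and -0.74 (SE 0.09). Of the 9 genes it had the smallest SE of the cold difference. Per kb of exon, Nrp1 stood at 3.78 and 3.56 times the Kdr level at RT (geometric means, Ctrl and BAT-Mcu-KO). At 4°C it stood at 0.987 times in both genotypes.

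Tek, the receptor of the angiopoietins, was near the same level in all groups, with means of 474 ± 94.0, 472 ± 55.7, 498 ± 48.8 and 453 ± 56.8 normalized counts (SD, Ctrl at RT and 4°C, then BAT-Mcu-KO at RT and 4°C). Its log2 difference with cold was 0.01 (SE 0.13) in Ctrl and -0.14 (SE 0.13) in knockout mice. The ranges overlapped fully, with 288 to 545 at RT and 414 to 534 at 4°C in Ctrl mice. Replicate 6 of Ctrl at RT, with 288, was again the lowest of the 23 mice, and the Ctrl difference was -0.12 without it.

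Aplnr, the apelin receptor, had by far the widest difference of the 9 genes. In Ctrl mice at RT it ran from 156 (median 269.6) to 358 normalized counts, and in the 5 Ctrl mice at 4°C it was 10.1, 6.07, 3.73, 11.0 and 17.6, which rest on 3 to 22 reads. Knockout mice had 204 to 331 (median 263) at RT and 9.15 to 24.2 (median 14.5) at 4°C, on 10 to 29 reads. All mice at 4°C were below all mice at RT, and 1 Ctrl mouse was at the floor of 3 reads. The mean at RT was 27.4 times that at 4°C in Ctrl mice and 17.1 times in knockout mice. The log2 difference was -4.75 (SE 0.28) and -4.06 (SE 0.26), and it depended on the pseudocount, at -3.81 and -3.44 with a pseudocount of 10.

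Pecam1 and Cdh5, which both mark endothelial cells, differed in their cold values. Pecam1 was 1092 to 1331 normalized counts (median 1221) in Ctrl mice at RT and 2146, 1885, 2164, 3173 and 2308 at 4°C. In the knockout it was 1060.1 to 1329 (median 1144) at RT and 1733 to 2578 (median 2094) at 4°C. The groups lay apart in both genotypes, with a log2 difference of 0.93 (SE 0.11) and 0.84 (SE 0.11). Cdh5 (VE-cadherin) was 396 to 704 (median 483) in Ctrl mice at RT against 514, 574, 564, 826 and 820.3 at 4°C, and 439.6 to 758 (median 542) against 513 to 770.2 (median 555) in knockout mice. These ranges overlapped, and the log2 difference was 0.35 (SE 0.16) and 0.05 (SE 0.15). Per kb of exon, the mean log2 ratio of Cdh5 to Pecam1 went from -0.69 ± 0.30 to -1.26 ± 0.23 in Ctrl mice. In knockout mice this ratio went from -0.48 ± 0.20 to -1.27 ± 0.09 (both SD over mice).

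Groups at RT and 4°C lay fully apart for 5 of the 9 genes in Ctrl mice, with Vegfa, Kdr and Pecam1 higher and Nrp1 and Aplnr lower at 4°C. Over all 14651 genes, 13% lay apart with 4°C higher and 12.3% with 4°C lower. In knockout mice 4 genes lay apart, Kdr and Pecam1 higher and Nrp1 and Aplnr lower, where 12.4% and 11.9% of all genes did so. Since the genes were chosen with these differences known, nothing is read from the counts. Set against Pecam1 in the same mouse, Tek and Aplnr were both lower at 4°C. The mean log2 ratio of Tek to Pecam1 per kb of exon went from -0.98 to -1.89 in Ctrl and from -0.82 to -1.80 in knockout mice. That of Aplnr to Pecam1 went from -1.47 to -7.33 and from -1.39 to -6.39.

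Levels of different genes were compared as normalized counts per kb of exon, from the exon lengths of GENCODE M21. All annotated exons of a gene were merged for its length, which was 13504 bases for Flt1 and 9030 for Kdr. Ranks between genes depend on this choice, and no other length was tried. In Ctrl mice at RT Nrp1 was highest at 415 ± 56.3 per kb (SD, n = 6), followed by Pecam1 at 194 ± 12.9 and Vegfb at 189 ± 36.2, which do not differ beyond their spread. Cdh5 (123 ± 28.4), Kdr (113 ± 31.0), Vegfa (106 ± 15.0) and Tek (101 ± 19.95) came next and were also within their spread, and Aplnr (72.0 ± 17.6) and Flt1 (60.3 ± 16.4) were lowest. In Ctrl mice at 4°C the order began with Pecam1 (375 ± 79.1), Kdr (247 ± 44.2) and Nrp1 (242 ± 25.3) and ended with Flt1 (87.2 ± 15.9) and Aplnr (2.63 ± 1.44) (SD, n = 5). Kdr and Nrp1, far apart at RT, were thus at like levels per kb at 4°C. Vegfa (187 ± 34.8) was by then beside Vegfb (173 ± 40.5), within their spread. Read per kb, the order in knockout mice at 4°C was also led by Pecam1 (337 ± 51.2), Kdr (222 ± 30.7) and Nrp1 (219 ± 24.3). As RNA levels of whole tissue these values say nothing of protein.

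None of the 9 genes was called as different between BAT-Mcu-KO and Ctrl mice. By limma, with p adjusted over all 14651 genes by the Benjamini-Hochberg method and called under 0.05, 0 of 9 were called at RT and 0 of 9 at 4°C. Among all genes 0.0478% were called at RT and 0.0751% at 4°C. At an unadjusted p under 0.05 the counts were 0 at RT and 2 at 4°C, Vegfb and Aplnr, where 754 and 1023 of all 14651 genes passed. DESeq2 and edgeR on the recovered reads also called 0 of 9 at either temperature. The log2 differences at RT lay between -0.18 (Nrp1, SE 0.09) and 0.15 (Cdh5, SE 0.15), and those of Vegfa (0.01, SE 0.14) and Kdr (-0.09, SE 0.17) were smaller than their SE. The sign of the RT values of Vegfa, Vegfb and Aplnr changed with the scaling.

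At 4°C Aplnr and Vegfb had the largest genotype differences of the 9 genes. Aplnr was 9.72 ± 5.33 normalized counts in Ctrl mice (SD, n = 5) and 15.5 ± 5.48 in knockout mice (SD, n = 6), a log2 difference of 0.71 (SE 0.28) with overlapping ranges and an adjusted p of 0.597 by limma. Vegfb was 277 ± 65.0 in Ctrl and 216 ± 42.8 in knockout mice, a log2 difference of -0.35 (SE 0.16) with an adjusted p of 0.682 by limma. The other 7 genes had differences of -0.15 (Cdh5, Kdr, Nrp1 and Pecam1) to -0.03 (Flt1) on the log2 scale. The signs of Vegfa and Flt1 changed with single mice left out, and that of Flt1 with the scaling as well.

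The cold response itself did not differ between the genotypes past the threshold for any of the 9 genes (0 of 9 by limma, 0 at an unadjusted p under 0.05, and 0 of 9 by DESeq2 and by edgeR). By limma 0% of all genes were called for this difference, and 878 of 14651 had an unadjusted p under 0.05. DESeq2 called 28 genes and edgeR 0. Aplnr came nearest among the 9 genes, with a log2 cold effect that was 0.69 (SE 0.38) less negative in BAT-Mcu-KO than in Ctrl mice (adjusted p = 0.8501, limma). For Vegfb the cold effect was lower by -0.36 (SE 0.22) and for Cdh5 by -0.30 (SE 0.22), with adjusted p of 0.855 and 0.873 by limma. For Vegfa, Kdr and Nrp1 the differences were -0.06 (SE 0.21), -0.05 (SE 0.25) and 0.03 (SE 0.13), with a sign that changed with the scaling or with single mice left out. These SEs leave room for a genotype difference of moderate size in each gene, and its absence is not shown.

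**Figure D2:**
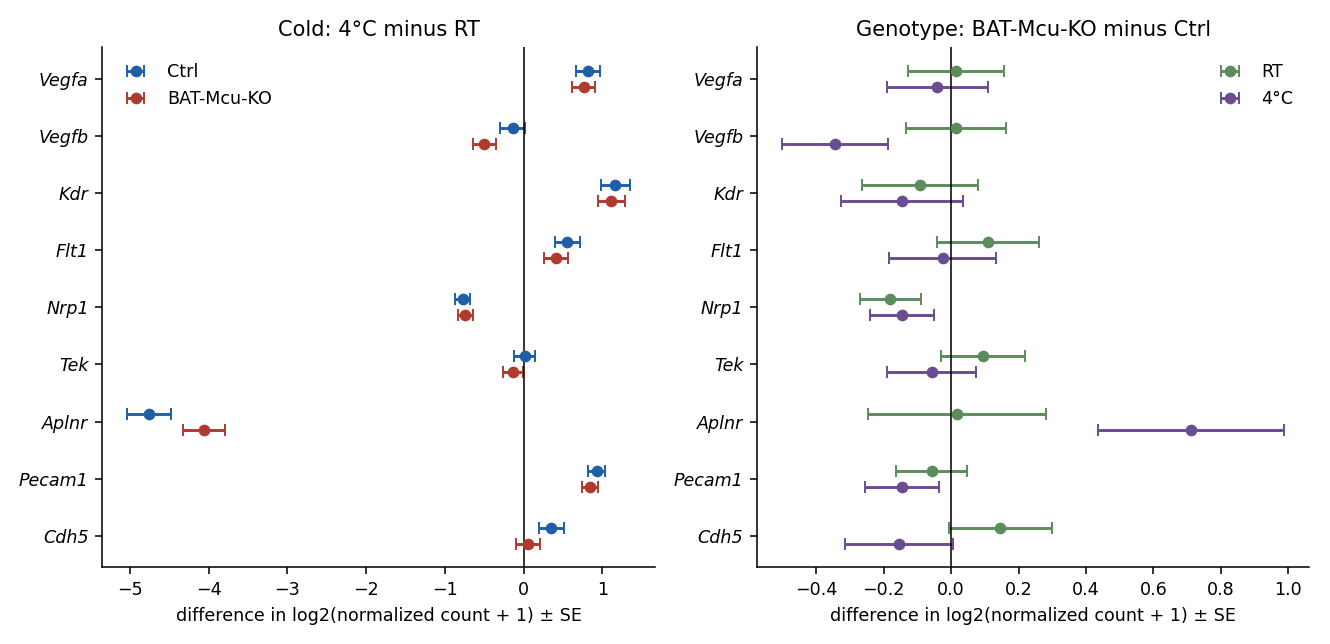
Differences in log2(normalized count + 1) ± SE of the fit for the 9 genes, 4°C minus RT in each genotype (left) and BAT-Mcu-KO minus Ctrl at each temperature (right, with a narrower axis). Cold differences run from -4.75 for Aplnr to 1.16 for Kdr (both in Ctrl mice), while genotype differences lie between -0.35 (Vegfb at 4°C) and 0.71 (Aplnr at 4°C).

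Beside the 9 genes, 51 of 58 listed genes of vascular signalling were in the table. With cold 19 of them rose and 11 fell in Ctrl mice (37.3% and 21.6%), and 20 rose and 12 fell in knockout mice (39.2% and 23.5%), by limma at an adjusted p under 0.05. The background was 22.3% of all genes higher and 23.7% lower in Ctrl mice, and 21.4% and 21.9% in knockout mice. This list, like the marker lists below, was chosen with earlier results of these data known. Calls and shares of these lists are therefore a description. The median log2 difference over the signalling list was 0.17 in Ctrl and 0.32 in knockout mice, against -0.02 over all genes in both. In both genotypes 18 genes rose and 9 fell, 3 were called in Ctrl mice only, 5 in knockout mice only and 16 in neither. The 2 cold comparisons share no mouse.

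Among the other ligands and receptors of the VEGF family Pgf and Flt4 rose and Nrp2 fell in both genotypes. Pgf encodes placental growth factor, a ligand of FLT1 and NRP1 but not of KDR. It was 7.55 ± 3.62 normalized counts in Ctrl mice at RT (SD, n = 6) and 18.2, 18.2, 38.6, 121 and 127 in the 5 Ctrl mice at 4°C. No mouse at 4°C was below a mouse at RT in Ctrl, but the spread at 4°C was wide, and in knockout mice 1 mouse at 262 stood above the rest, which were at 12.3 to 56.7. Its log2 difference was 2.59 (SE 0.62, adjusted p = 0.00128) in Ctrl and 2.24 (SE 0.59, adjusted p = 0.00330) in knockout mice by limma. Nrp2, the second neuropilin, fell like Nrp1, by 0.58 and 0.59 on the log2 scale. Flt4, the receptor of VEGF-C on lymphatic endothelium, rose by 0.79 and 0.45. Vegfc and Figf (VEGF-D) were not called, with log2 differences of -0.85 and -0.45 in Ctrl mice.

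Apln, the ligand of APLNR, was low throughout and lower at 4°C in most mice, so that ligand and receptor were both low in the cold. It was 17.9 to 41.7 normalized counts in Ctrl mice at RT, and at 4°C it was 0, 0, 8.71, 7.35 and 59.3. The last of these, replicate 5, was above every Ctrl mouse at RT. Knockout mice had 17.0 to 55.3 at RT and 0.657 to 19.2 at 4°C. By limma the log2 difference was -2.45 (SE 0.76, adjusted p = 0.00971) in Ctrl mice and -2.06 (SE 0.72, adjusted p = 0.0229) in knockout mice. In Ctrl mice it was -0.96 by DESeq2 and -0.83 by edgeR, neither of which called it, and -3.32 by limma without replicate 5. In knockout mice the limma call was lost without replicate 1 at 4°C, with a difference of -1.61.

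Angpt1, the ligand that activates TEK, had the largest cold difference of the signalling genes called in both genotypes, while the means of Tek lay within their spread. It was 118 to 265 normalized counts in Ctrl mice at RT and 16.2, 10.6, 18.7, 14.7 and 13.6 at 4°C. Knockout mice had 135 to 258 at RT and 6.39 to 18.4 at 4°C, and the groups lay far apart in both genotypes. The log2 difference was -3.60 (SE 0.24, adjusted p = 1.34e-11, limma) and -3.83 (SE 0.23, adjusted p = 2.10e-12, limma). Tie1, the orphan partner of TEK, fell by 0.69 and 0.90, and Ptprb, the phosphatase that acts on TEK, rose by 0.70 and 0.62. Angpt2, which can oppose Angpt1, rose in knockout mice (1.01, adjusted p = 0.00522, limma) and was at 0.64 in Ctrl mice (adjusted p = 0.0813, limma), where DESeq2 and edgeR did call it higher (adjusted p = 0.0198 and 0.0302). The difference between the genotypes in this response was not called.

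In the group of Notch, tip cell and guidance genes, 5 of 19 rose and 2 fell in each genotype (26.3% and 10.5%), a share of higher genes near that of all genes and a share of lower genes below it. The Notch ligands Jag1 and Jag2 went in opposite directions, Jag1 falling by 0.89 and 0.96 and Jag2 rising by 1.23 and 1.13 on the log2 scale in Ctrl and BAT-Mcu-KO mice. Dll4, the tip cell ligand, was not called (-0.13 and -0.18). Hes1, a target of Notch, rose by 1.17 and 1.28, a call lost in Ctrl mice without Ctrl replicate 3 or 5 at 4°C (1.13 and 0.83) or replicate 3 at RT (0.94). Sema3f, a class 3 semaphorin that binds neuropilins, rose by 2.36 and 2.14. Efnb2 (ephrin B2), a marker of arterial endothelium, was called lower in Ctrl mice, where it went from 53.1 ± 11.0 to 21.2 ± 6.03 normalized counts, and was 45.3 ± 17.3 and 38.0 ± 11.2 in knockout mice (SD). Its cold effect was 1.08 (SE 0.34) higher in knockout mice, with an unadjusted p of 0.00355 and an adjusted p of 0.742 by limma, so the difference was not called.

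Of 9 genes of vasoactive peptides and nitric oxide, 4 rose and 2 fell in Ctrl mice (44.4% and 22.2%) and 4 rose and 3 fell in knockout mice (44.4% and 33.3%), with the lower share in Ctrl mice near that of all genes. Edn1 (endothelin) rose by 1.85 and 1.68 on the log2 scale and Adm (adrenomedullin) by 1.45 and 1.27, in Ctrl and BAT-Mcu-KO mice. Of the endothelin receptors, Ednrb, which is endothelial, rose by 1.13 and 1.12, and Ednra, the receptor of smooth muscle, fell by 0.83 and 0.92. Calcrl, the receptor of adrenomedullin, fell by 0.76 and 0.58. Nos3, the endothelial nitric oxide synthase, was not called (-0.38 and -0.27).

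Among angiogenic growth factors and inhibitors 7 of 13 rose and 3 fell in each genotype (53.8% and 23.1%), with the lower share near that of all genes. Spry4, a feedback inhibitor of receptor tyrosine kinase signalling, rose by 2.97 and 2.61, and Apold1, an early response gene of endothelial cells, by 2.62 and 2.54. Ctgf (2.19 and 1.94) and Cyr61 (1.27 and 1.19), matricellular proteins, rose together with the inhibitors of angiogenesis Thbs1 (1.97 and 1.58) and Adamts1 (1.73 and 1.46). Pdgfb, by which endothelial cells recruit pericytes, rose by 1.41 and 1.33, whereas Fgf2 fell by 1.16 and 1.15. Genes of this group that rose thus include both factors that favour and factors that limit vessel growth.

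**Figure D3:**
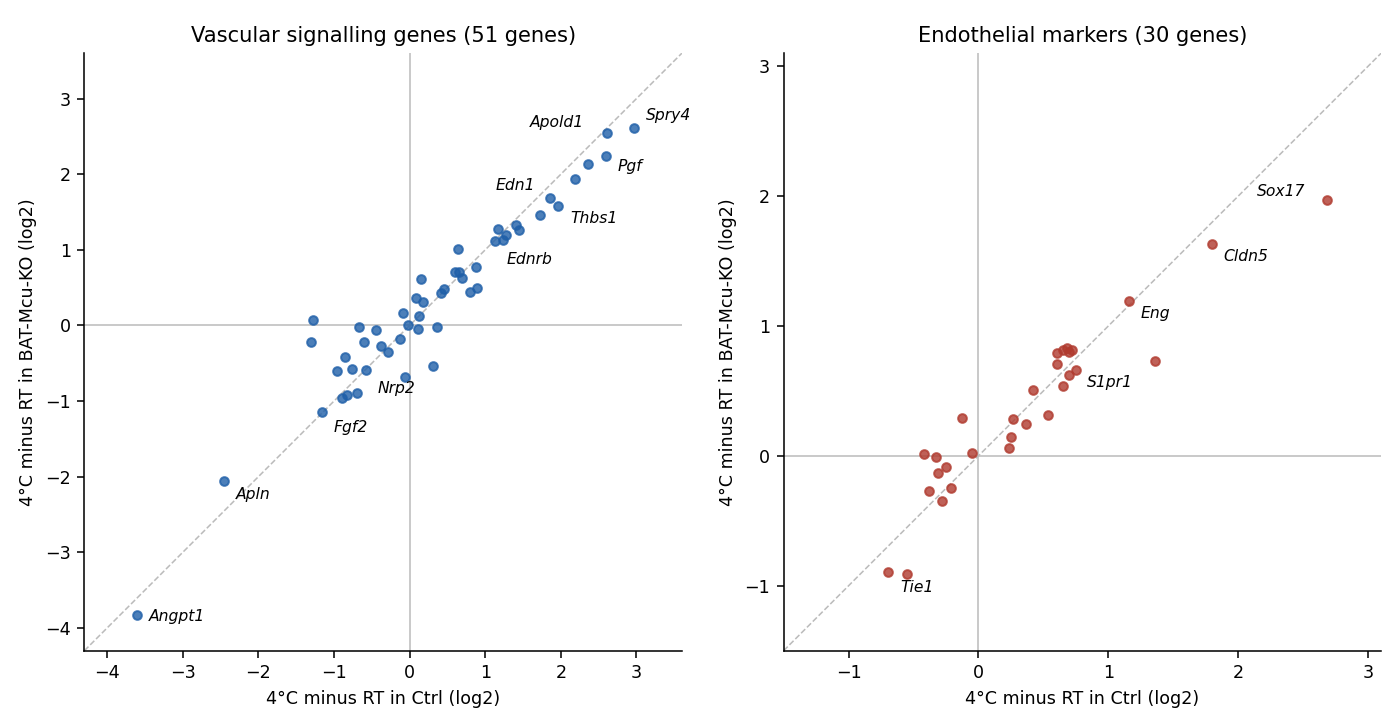
Cold difference (4°C minus RT, log2(normalized count + 1) scale) in Ctrl mice (horizontal) against BAT-Mcu-KO mice (vertical) for the 51 vascular signalling genes and the 30 endothelial markers, 1 point per gene, with equal differences on the dashed line. Angpt1 at -3.60 and -3.83 and Spry4 at 2.97 and 2.61 are the ends of the first panel, and Sox17 at 2.68 and 1.97 stands highest in the second.

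Of the 30 endothelial markers, 15 rose and 3 fell in Ctrl mice (50% and 10%) and 13 rose and 2 fell in knockout mice (43.3% and 6.67%), beside the same backgrounds. The median log2 difference was 0.39 and 0.30. Their summed level did not overlap between temperatures, at 15804 to 20452 and 21232 to 30288 in Ctrl mice and 14139 to 18745 and 20478 to 27801 in knockout mice. Higher Pecam1 was thus accompanied by a higher summed level of other endothelial genes, and its part in the values of the 9 genes was not tested. In both genotypes 12 markers rose, 1 fell, 5 were called in Ctrl mice only and 2 in knockout mice only, and 10 in neither. The list shares 5 genes (Nos3, Ptprb, Ramp2, Robo4 and Tie1) with the signalling list.

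Sox17, a transcription factor of arterial endothelium, rose most (log2 difference 2.68 with SE 0.42 and 1.97 with SE 0.40, adjusted p = 1.15e-05 and 0.000297, limma). The tight junction gene Cldn5 rose by 1.80 and 1.63 and the TGF-β co-receptor Eng by 1.16 and 1.19. A group of 9 further markers rose by less, among them Gpihbp1 (0.72 and 0.81), which carries lipoprotein lipase across capillary endothelium, the sphingosine phosphate receptor S1pr1 (0.75 and 0.66) and Sox18 (0.65 and 0.82). The junction genes Esam (0.65 and 0.54) and Icam2 (0.68 and 0.83) were in this group, with Adgrl4 (0.69 and 0.80), Robo4 (0.60 and 0.70), Ptprb and Rasip1. Rasip1, which acts in the formation of vessel lumens, rose by 0.60 and 0.79, and its call in Ctrl mice was lost without replicate 4 at 4°C (0.37), without replicate 1 (0.52) or 6 (0.52) at RT, under scaling to the 75th percentile (0.49) and with only the Ctrl groups in the fit. Tie1 was the marker that fell in both genotypes. The transcription factors Fli1 (-0.05 and 0.02) and Erg (-0.25 and -0.09) and the surface protein Cd93 (0.25 and 0.14) were not called, like Vwf (-0.13 and 0.29).

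Neither list held a gene called by genotype. By limma 0 of 51 signalling genes and 0 of 30 endothelial markers were called at RT, at 4°C or for the difference in cold response. At an unadjusted p under 0.05 the limma counts were 1, 4 and 2 of the signalling genes and 5, 2 and 2 of the endothelial markers. Of all 14651 genes, 754, 1023 and 878 passed. In knockout mice 8 of the 30 endothelial markers were higher at RT and 7 at 4°C, with a median log2 difference of -0.09 at each. Of the 51 signalling genes 23 and 24 were higher, and of all genes 7357 and 7508. DESeq2 and edgeR also called 0 in each of these comparisons.

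Markers of other cells are given beside the shares of all genes called with cold above. Of 10 pericyte and smooth muscle markers, 2 rose and 4 fell in Ctrl mice (20% and 40%) and 2 rose and 3 fell in knockout mice (20% and 30%), so the share that rose was near that of all genes. Their summed level was 8694 to 11001 at RT and 8166 to 10154 at 4°C in Ctrl mice, with overlap. Cspg4 (NG2), a pericyte proteoglycan, fell by 2.17 and 2.08 on the log2 scale, Notch3 by 0.75 and 0.99 and Pdgfrb by 0.42 and 0.35, while Tagln rose by 0.47 and 0.63. The list did not go 1 way, with a median of -0.06 and -0.05 and 4 and 5 of the 10 genes above 0. Mean Kcnj8 was 422 at RT and 412 at 4°C in Ctrl mice, and 389 and 439 in knockout mice. Mean Abcc9 was 504 and 540, and 505 and 574. Lyve1 and Flt4, 2 of 3 lymphatic markers in the table, rose in both genotypes. Pdpn, the third, was not called, with log2 differences of -0.41 in Ctrl and 0.09 in knockout mice. Of the 5 lymphatic markers listed, Prox1 and Mmrn1 were not in the table. Of 8 macrophage markers 1 rose in Ctrl (12.5%) and 4 in knockout mice (50%) by limma. In each genotype 7 of the 8 had a cold difference above 0, and 0 of 8 were called for the difference in cold response. Among 10 brown adipocyte genes 4 rose and 4 fell in Ctrl mice, and 3 and 2 in knockout mice. Their summed level was 197999 to 273508 at RT and 274708 to 334734 at 4°C in Ctrl mice. This sum includes Ucp1, whose mean in Ctrl mice was 63858.5 at RT and 165205 at 4°C. Of the other abundant genes in it, Fabp4 (72465.6 and 60710.1) and Cidea (49559.9 and 39297.8) had lower Ctrl means at 4°C. A sum without Ucp1 was not taken. Of 5 Schwann cell and nerve markers 1 fell in Ctrl and 2 in knockout mice. Of 5 red blood cell genes 0 were called with cold by limma, DESeq2 or edgeR, with 0 at an unadjusted p under 0.05 by each. Of 8 skeletal muscle genes limma called 0 with cold (0 at an unadjusted p under 0.05). DESeq2 called 1 in each genotype, and edgeR called 2 in Ctrl and 1 in knockout mice. At RT all 8 were higher in knockout mice, with a median log2 difference of 1.84. None was called by genotype at RT or for the difference in cold response. At an unadjusted p under 0.05 the counts for these were 0 and 0 by limma, 6 and 8 by DESeq2, and 8 and 8 by edgeR. The part of these cells in the values of the 9 genes was not tested.

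Deviations from the group mean show how the 9 genes vary from mouse to mouse within a group. Over the 23 mice the median Pearson r of the 36 pairs of genes was 0.21, with 8 pairs above 0.5 and 11 below 0. Kdr went with Tek (r = 0.73), Cdh5 (0.65) and Vegfa (0.55), and Cdh5 also with Flt1 (0.65), Pecam1 (0.65) and Vegfa (0.55). The r of Kdr and Tek was 0.41 without the 2 mice farthest from the median of Kdr. Flt1 went with Pecam1 (0.57) and with Vegfb (0.55), its own ligand. Nrp1 and Aplnr went with none of the others above 0.23, and the lowest r was that of Aplnr and Vegfb (-0.38). The libraries were of unequal depth, and r of the deviations with log2 depth ran from -0.11 (Vegfa) to 0.45 (Pecam1), so these values are a description.

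**Figure D4:**
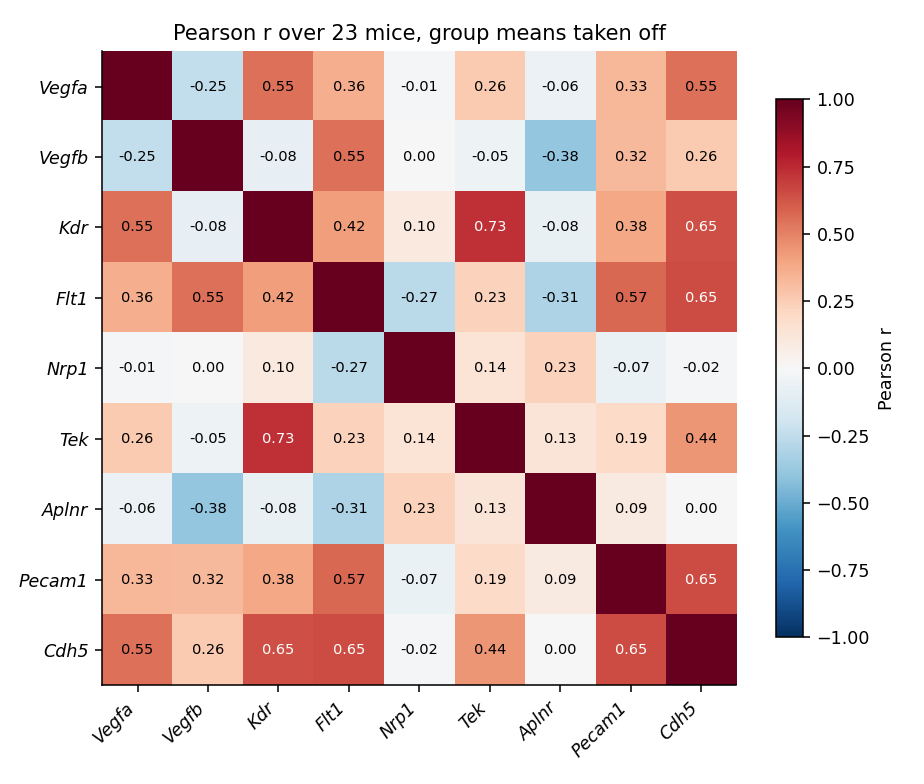
Pearson r over 23 mice of log2(normalized count + 1) after the group mean was taken off, for each pair of the 9 genes (rows and columns), on a colour scale from -1 to 1. Kdr, Flt1, Pecam1, Cdh5 and Vegfa form a block of positive values up to 0.65, with Tek joined to Kdr at 0.73, and Nrp1 and Aplnr stand outside it.

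For 3 of the genes, those whose deviations from the group mean were most alike were sought among the 9530 genes whose normalized count averaged at least 50. For Vegfa they were Scaf11 (r = 0.77), Cdk8 (0.77), Arfgef1 (0.76), Safb2 (0.76) and Khsrp (0.76). None of these belongs to the vascular lists, and Vegfa differed more between RT and 4°C than each of them (0.15 to 0.65 on the log2 scale in Ctrl mice). For Cdh5 they included Rere (0.89), Col4a2 (0.88), Lama5 (0.86) and Prrc2a (0.84). Col4a2 and Lama5 encode a collagen and a laminin of the basement membrane on which endothelium rests. With cold Cdh5 differed by 0.35 and 0.05 (log2, Ctrl and knockout mice), Col4a2 by 2.01 and 1.67 and Lama5 by 0.92 and 0.22. Rere differed by -0.61 and -0.70, and Prrc2a by 0.39 and 0.16. For Aplnr they were Rtp4 (0.76), Ppp1r2 (0.75), Prss23 (0.74), Gpx7 (0.74) and C1ra (0.74), of which Ppp1r2 and Prss23 were higher at 4°C in Ctrl mice (0.77 and 1.01 on the log2 scale), against the direction of Aplnr.

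The genes lie on GRCm38 as follows, from GENCODE M21. Vegfa is on chromosome 17 from 46016993 to 46032369 and Vegfb on chromosome 19 from 6982473 to 6987651, both on the minus strand. Kdr (75932827 to 75978458) and Flt1 (147561604 to 147726011) are both on the minus strand of chromosome 5. Nrp1 (128358604 to 128503363) and Cdh5 (104101625 to 104144511) are on the plus strand of chromosome 8. Tek is on the plus strand of chromosome 4 (94739289 to 94874976), Aplnr on the plus strand of chromosome 2 (85136225 to 85139923) and Pecam1 on the minus strand of chromosome 11 (106654217 to 106750628). Reads were counted without regard to strand, and only Nrp1 and Cdh5 overlap another annotated gene, Mir1903 and Gm29682, from which their reads cannot be told apart there.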

How the data were processed

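RNA from BAT of 23 mice was made into Smart-seq2 libraries and read at both ends. The authors aligned reads to mm10 with STAR 2.4.0j, counted those in exons with HTSeq irrespective of strand, kept the 14651 genes that reached 8 reads in 6 or more samples, and deposited normalized counts (a signal, reads divided by the DESeq2 size factor). The values were whole multiples of 1 read within 0.1 (100.0% in every sample), which gave back 7129271 to 21006347 reads per sample. Counting error only is covered by read numbers, since PCR copies cannot be told apart. The number of per-sample columns not used was 0. A second table, of the authors' own fold changes and p-values, was not used. Groups and replicate numbers came from the labels, and mice were the replicates.

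Values were fitted as log2(normalized count + 1) with limma 3.58.1 in R 4.3.3, with a variance trend and a mean for each of the 4 groups, in all 23 mice. P-values were adjusted by the Benjamini-Hochberg method over all genes and called under 0.05. The pseudocount of 1 makes differences of genes with few reads smaller. The 9 genes and the lists were chosen with earlier results of these data known. Named list genes are those called by cold in both genotypes in 1 direction, up to 20 per list by mean size, with the 5 genes most alike for Vegfa, Aplnr and Cdh5, of which 1 is not reported here. Efnb2, Angpt2, Dll4, Nos3, Vegfc, Figf, Fli1, Erg, Cd93, Vwf and the markers of other cells were named after their values were seen, as were Nrp2, Flt4 and Calcrl, which fell past 20 in the order of size.

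Alternatives were a pseudocount of 0.5 or 10, a mean normalized count of 50 or more, quantile normalization, scaling to the 75th percentile, no variance trend, only the groups compared, the replicate number as a block, DESeq2 1.42.0 and edgeR 4.0.16 on the recovered reads, and each mouse left out. Fits were tested on simulated data. Tables were handled with Python 3.11.15 and pandas 2.3.3. Upstream sequences came from RefSeq (GRCm38.p6).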

Additional observations from a re-analysis of the deposited data

Results flagged for a closer look

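Of 36 combinations of the 9 genes and 4 groups, 2 held a mouse set far from the rest of its group, by the gap to its neighbour over the whole range (Dixon's 95% critical value). Chance gives about 1 in 20. In BAT-Mcu-KO mice at 4°C, replicate 1 had 298 normalized counts of Vegfb, a gap of 0.695 of the range above the other 5. Without it the genotype difference at 4°C was -0.44 in place of -0.35 on the log2 scale, and the cold difference in BAT-Mcu-KO mice was -0.60 in place of -0.50. In Ctrl mice at RT, replicate 6 had 288 normalized counts of Tek, a gap of 0.772 of the range below the other 5. Without it the genotype difference of Tek at RT was -0.04 in place of 0.09.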

How the results depend on the processing

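No alternative called any of the 9 genes by genotype or for the difference in cold response, and counts of list genes stayed within 1.5 times except for endothelial markers lower at 4°C. These were 3 in Ctrl mice, against 6 under scaling to the 75th percentile and 5 under quantile normalization, and 2 in knockout mice, against 1 by DESeq2, 1 by edgeR, 1 without a variance trend and 1 to 2 with single mice left out. Scaling to the 75th percentile moved the median cold difference of all genes from -0.02 to -0.13 in Ctrl and to -0.07 in knockout mice. Differences near 0 changed sign, and the cause was not tested. For Vegfa the genotype difference at RT became -0.0143 (75th percentile) and -0.0188 (quantile), and the difference in cold response 0.0024 (75th percentile). For Vegfb at RT it became -0.0141 (75th percentile), -0.00285 (DESeq2), -0.00394 (edgeR) and -0.00797 (quantile), and for Aplnr at RT -0.0105 (75th percentile), -0.00551 (DESeq2) and -0.00636 (edgeR). For Kdr the difference in cold response became 0.00348 and for Flt1 the genotype difference at 4°C 0.00365 (75th percentile). With the replicate number as a block (replicate block) these last became 0.0106 and 0.00617, and 0 of 9 genes were called. The block gave 21 signalling genes higher and 11 lower in Ctrl mice and 22 and 12 in knockout mice, and 15 and 3, and 14 and 2, endothelial markers. Deviations of same-numbered mice had r from -0.204 to 0.218. Between Ctrl and BAT-Mcu-KO mice at 4°C each r was above 0 (0.042 to 0.218). Between BAT-Mcu-KO mice at RT and 4°C each was below 0 (-0.204 to -0.025). Mice of unlike number were not compared, so whether the numbers pair the mice was not tested. With single mice left out the ranges that crossed 0 were, at RT by genotype, -0.050 to 0.083 (Vegfa), -0.071 to 0.073 (Vegfb), -0.044 to 0.14 (Tek) and -0.13 to 0.11 (Aplnr), at 4°C by genotype -0.11 to 0.075 (Vegfa) and -0.093 to 0.064 (Flt1), and for the difference in cold response -0.13 to 0.061 (Vegfa), -0.14 to 0.13 (Kdr), -0.030 to 0.085 (Nrp1) and -0.16 to 0.029 (Pecam1). Of the cold differences, those of Vegfb (-0.24 to 0.015) and Tek (-0.12 to 0.059) in Ctrl mice and of Cdh5 in knockout mice (-0.031 to 0.14) crossed 0 as well. Depth limits Aplnr and Apln at 4°C, which rest on few reads.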
